A study of Homo sapiens with 10 samples.

Results

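The genes described here are 31 genes of the hypoxia response and of glycolysis, chosen by name: the oxygen-regulated transcription factor subunits HIF1A and EPAS1, genes known to be induced in low oxygen, and the glucose transporters and glycolytic enzymes that belong to the same response. Of the 31, 27 were measured on a probe set annotated to that gene alone, out of 14233 genes measured in this way. For EGLN1 and SLC2A3 the matching probe sets carry several gene symbols and are not named, and CA9 and ANKRD37 are not analysed here. P4HA2 had more than 1 such probe set, and the one with the highest mean was taken. The cells were U2OS, a human osteosarcoma line. The treated group received PD0332991, known as palbociclib, which blocks the cell cycle kinases CDK4 and CDK6, and the comparison group received its solvent DMSO, both for 4 h after 30 h of growth in medium with 10% serum, with 5 biological replicates each. The labels state a dose of 1 mM. Cell culture work with palbociclib usually stays in the micromolar range, and whether the unit is right could not be checked. They name no low-oxygen group, and they call the replicates biological without saying how the cultures were separated, so p-values measure the spread between these samples.

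In well-oxygenated cells, prolyl hydroxylases of the EGLN family mark the HIF alpha subunits for destruction through VHL. When oxygen is low the subunits escape, pair with ARNT and bind a short DNA element in the promoters and enhancers of genes for glucose uptake, glycolysis, blood vessel growth and mitophagy. Much of the control of the alpha subunits is therefore on the protein, which these arrays do not measure. Many cancer lines run glycolysis at a high rate in normal oxygen, so that several of these genes are strongly expressed without hypoxia.

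The short element that HIF binds has the core ACGTG or GCGTG. Promoter sequences from RefSeq (GRCh38.p14) were searched for these letters on both strands, in the 250 bases before the most upstream start of each gene. Of the 31 genes 27 had an entry, all but VEGFA, BNIP3L, NDRG1 and SLC2A3. They are not the same 27 as the measured genes, since they include EGLN1, CA9 and ANKRD37. At least 1 core was found in 19 of these 27 windows (70.4%), against 43.1% of 27305 windows of all genes. ACGTG was in 12 of the 27 (44.4%, against 18.6% of all) and GCGTG in 11 (40.7%, against 31.9%). Where ACGTG meets its own complement the letters read CACGTG, which 4 of the 27 windows held (14.8%, against 6.46% of all). These are letter matches, not sites shown to be bound, and many of the genes are on the list because they are known HIF targets. The windows below are those of ENO2 and BNIP3, which had the smallest p-values for the treatment, of HK2 and KDM3A, which differed most between the sets of arrays, and of DDIT4, a hypoxia-induced gene outside the 31 that responded. Capitals mark the cores on either strand.
ENO2, chr12:6914330-6914579, plus strand: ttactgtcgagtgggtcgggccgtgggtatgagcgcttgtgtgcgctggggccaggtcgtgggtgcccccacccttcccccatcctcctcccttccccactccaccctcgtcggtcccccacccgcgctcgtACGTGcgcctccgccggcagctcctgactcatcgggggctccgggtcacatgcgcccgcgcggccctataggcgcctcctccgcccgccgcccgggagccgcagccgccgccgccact
BNIP3, chr10:131981924-131982173, minus strand: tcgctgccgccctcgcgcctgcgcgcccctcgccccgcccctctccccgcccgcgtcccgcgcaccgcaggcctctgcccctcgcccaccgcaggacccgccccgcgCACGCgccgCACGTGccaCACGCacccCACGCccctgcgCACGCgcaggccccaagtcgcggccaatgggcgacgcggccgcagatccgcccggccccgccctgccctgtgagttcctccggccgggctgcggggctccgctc
HK2, chr2:74833877-74834126, plus strand: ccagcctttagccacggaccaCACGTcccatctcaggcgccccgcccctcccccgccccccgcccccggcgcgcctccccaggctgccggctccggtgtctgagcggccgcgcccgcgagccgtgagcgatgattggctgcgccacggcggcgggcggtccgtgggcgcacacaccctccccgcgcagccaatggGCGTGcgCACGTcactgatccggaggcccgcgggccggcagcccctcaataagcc
KDM3A, chr2:86441121-86441370, plus strand: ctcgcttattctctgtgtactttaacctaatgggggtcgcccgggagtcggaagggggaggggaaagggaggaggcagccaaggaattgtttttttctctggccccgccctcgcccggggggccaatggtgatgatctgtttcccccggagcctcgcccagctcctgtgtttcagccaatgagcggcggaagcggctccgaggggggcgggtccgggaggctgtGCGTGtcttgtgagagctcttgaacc
DDIT4, chr10:72273674-72273923, plus strand: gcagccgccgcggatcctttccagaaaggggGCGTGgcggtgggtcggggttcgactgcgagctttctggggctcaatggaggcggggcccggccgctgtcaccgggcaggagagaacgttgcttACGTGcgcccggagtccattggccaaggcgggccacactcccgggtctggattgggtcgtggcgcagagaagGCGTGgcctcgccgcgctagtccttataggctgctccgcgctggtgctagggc
The BNIP3 window holds a cluster of 6 matches, 2 of them the strands of 1 CACGTG. The windows of HK2 and DDIT4 hold 3 matches each, and those of ENO2 and KDM3A 1 each.

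Expression was measured on arrays hybridised with biotin-labelled cDNA, as 1 log2 value per probe set at the level of genes. All values below are on this scale, where a difference of 1 is a doubling. Treatment and set differences were taken between arrays within a gene. Across genes, levels were only placed against an array's median or lower quartile, or averaged over the 27 genes. The array names in the labels divide the arrays into set 1 (replicates 1 to 3 of both treatments) and set 2 (replicates 4 and 5 of both). DMSO replicate 1 stood apart: its mean correlation with the other arrays was 0.963, against 0.979 to 0.984 for the other 9, and its interquartile range was 3.18, against 3.32 to 3.68. For BNIP3, P4HA1, PGK1, EPAS1, ANGPTL4, PPP1R3C, CITED2 and DDIT4 the value without it is given too. Of 8 markers of osteoblasts and mesenchyme, RUNX2, SPARC, COL1A1, VIM and SPP1 lay above the array median on all 10 arrays and COL1A2, ALPL and TWIST1 on none. The epithelial markers EPCAM and CDH1, the 3 blood markers and the 3 endothelial markers lay below it on every array, while the epithelial keratins KRT8 and KRT18 lay above it on all 10 and KRT19 on 4. All 27 genes lay above the lower quartile of every array and 24 above its median. EGLN3 and ANGPTL4 lay below the median of every array, and PFKFB4 below that of some.

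PD0332991 moved none of the 27 genes past the threshold after 4 h (limma fit of treatment and array set over 21980 probe sets, Benjamini-Hochberg adjusted p under 0.05): 0 were higher, against 0.00910% of all probe sets, and 0 were lower, against 0.0409%, or 11 probe sets in both directions. At an unadjusted p under 0.05 there was 1 gene of 27 (3.7%), ENO2, against 4.17% of all probe sets in either direction and 2.76% in the lower one. Of the 27 log2 differences (PD0332991 minus DMSO), 11 were positive and 16 negative, and 44.7% of all genes had a positive one. Their median was -0.01, against -0.02 over all genes, with a range of -0.20 to 0.41, and 16 were within 0.1 of zero. The standard errors ran from 0.08 to 0.26. For 23 of the 27 the 95% confidence interval lay within 0.5 of zero, and so held no change of 1.41-fold or more in either direction. The exceptions were BNIP3, P4HA1, PGK1 and ANGPTL4, whose intervals still lay within 1 of zero.

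**Figure D1:**
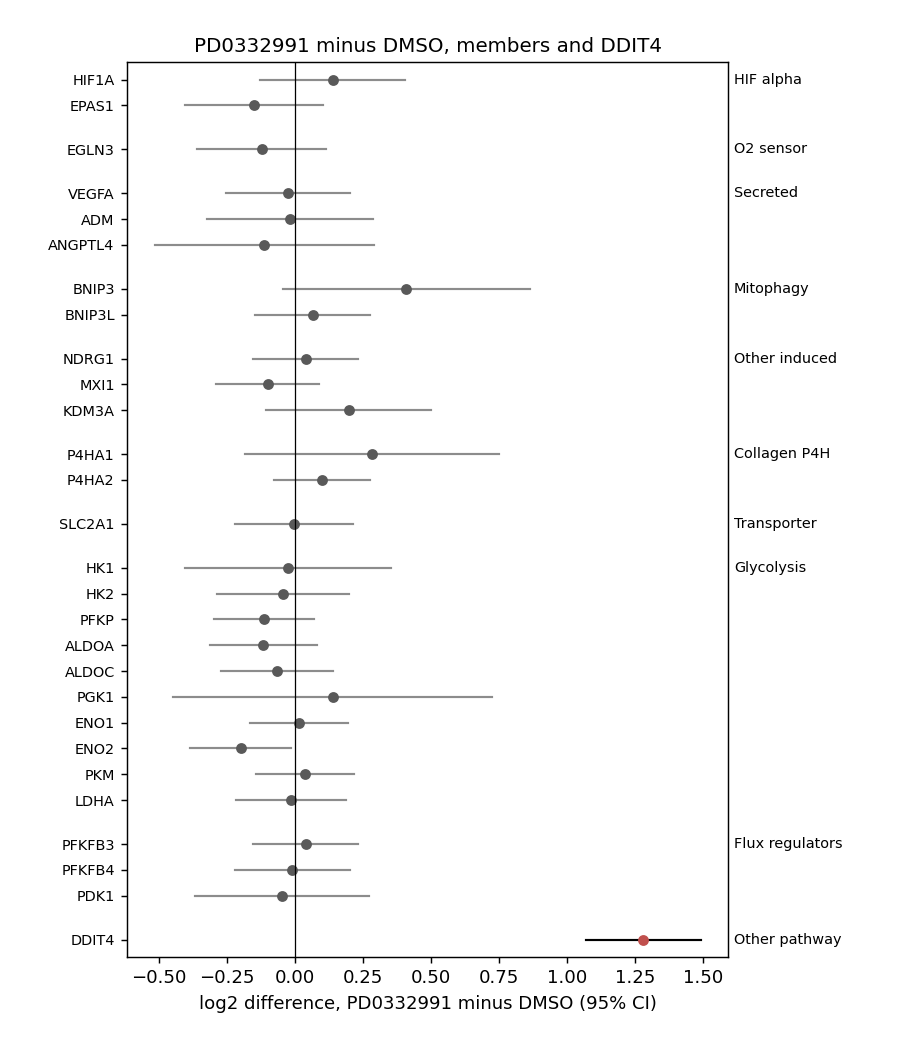
Log2 difference, PD0332991 minus DMSO (horizontal axis), for the 27 genes by role and for DDIT4; points are limma estimates and bars 95% confidence intervals (n = 5 arrays per group), with an adjusted p under 0.05 in red. The 27 estimates lie between -0.20 and 0.41, and the interval of DDIT4, at 1.28, lies above all of theirs.

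The genes are taken by role, beginning with the HIF alpha subunits. HIF1A encodes the alpha subunit of the main oxygen-regulated factor. Its values were 11.72, 11.65, 12.06, 11.25 and 11.72 on the PD0332991 arrays (replicates 1 to 5) and 11.66, 11.77, 11.72, 11.27 and 11.28 on the DMSO arrays. The groups overlapped, the treated replicate 3 was the highest of the 10, and the arrays of set 2 were low in both groups except for PD0332991 replicate 5. The log2 difference was 0.14 ± 0.12 (SE, n = 5 per group, limma adjusted p = 1), with a 95% confidence interval of -0.13 to 0.41. Without PD0332991 replicate 5 it was 0.06 and without PD0332991 replicate 3 it was 0.08. EPAS1, the gene of HIF-2alpha, had 8.39, 8.38, 8.52, 8.39 and 8.26 on the PD0332991 arrays and 8.88, 8.30, 8.55, 8.49 and 8.46 on the DMSO arrays. The groups overlapped, and DMSO replicate 1 was the highest. The difference was -0.15 ± 0.11, and without that array it was -0.07. EGLN3, an oxygen-sensing prolyl hydroxylase that is itself hypoxia-induced, had a difference of -0.12, with 6.16 to 6.56 on the PD0332991 arrays and 6.27 to 6.71 on the DMSO arrays.

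The mitophagy receptor BNIP3, an outer mitochondrial membrane protein that marks mitochondria for autophagy, had the largest log2 difference of the 27. It had 9.52, 9.81, 9.66, 9.70 and 10.27 on the PD0332991 arrays and 8.54, 9.64, 9.17, 9.67 and 9.90 on the DMSO arrays. The treated arrays were high in replicate 5 and otherwise lay among the DMSO values, and DMSO replicate 1 was the lowest by far. The difference was 0.41 ± 0.20 (SE), a ratio of 1.33 with a 95% confidence interval of 0.971 to 1.82. In the limma fit its unadjusted p was 0.0711 and its adjusted p was 1. Without DMSO replicate 1 the difference was 0.23, the lowest value when single arrays were left out, and without DMSO replicate 2 it was 0.53, the highest. With limma's array weights, which counted DMSO replicate 1 at 0.147 and the other arrays at 0.504 to 2.07, it was 0.16. It was 0.55 in array set 1 and 0.20 in set 2. Its relative BNIP3L, also a mitophagy receptor, had a difference of 0.07 (95% confidence interval -0.15 to 0.28), -0.05 in set 1 and 0.24 in set 2.

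The secreted products of the response showed values close to zero. VEGFA, the endothelial growth factor, had 7.13 to 7.45 (median 7.41) on the PD0332991 arrays and 7.23 to 7.56 (median 7.44) on the DMSO arrays, a log2 difference of -0.03 with a 95% confidence interval of -0.25 to 0.20. ADM, the vasodilator peptide adrenomedullin, had a difference of -0.02 (-0.32 to 0.29). ANGPTL4, a secreted inhibitor of lipoprotein lipase, had -0.11 (-0.51 to 0.29), and 0.04 without DMSO replicate 1, on which it reached 6.53 against 5.70 to 6.14 on the other DMSO arrays.

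Of the other induced genes, KDM3A, a histone demethylase, had 7.88, 7.71, 8.21, 7.21 and 7.30 on the PD0332991 arrays and 7.48, 7.53, 7.98, 7.27 and 7.06 on the DMSO arrays. Values of replicate 3 were the highest in both groups and those of set 2 the lowest. The difference was 0.20 ± 0.14 (SE), with 0.27 in set 1 and 0.09 in set 2, and without PD0332991 replicate 3 it was 0.11. MXI1, a MAX partner that opposes MYC, had 7.36, 7.45, 7.46, 7.57 and 7.43 on the PD0332991 arrays and 7.42, 7.58, 7.48, 7.58 and 7.70 on the DMSO arrays, with overlapping groups and a difference of -0.10 (95% confidence interval -0.29 to 0.09). NDRG1, a stress-responsive cytoplasmic protein and common marker of hypoxia, had a difference of 0.04 (95% confidence interval -0.15 to 0.23).

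P4HA1 and P4HA2 encode the catalytic subunits of the enzyme that hydroxylates prolines in collagen. P4HA1 had 9.82, 9.57, 9.91, 9.13 and 9.45 on the PD0332991 arrays and 8.63, 9.67, 9.77, 9.15 and 9.24 on the DMSO arrays. Apart from the low value of DMSO replicate 1 the groups covered a similar range, and the difference of 0.28 ± 0.21 became 0.07 without that array. P4HA2 had 9.97, 9.96, 10.02, 10.17 and 10.10 on the PD0332991 arrays and 9.80, 9.83, 9.91, 10.11 and 10.07 on the DMSO arrays. In set 1 all treated arrays were above all DMSO arrays, in set 2 they were not, and the difference was 0.10 ± 0.08. A dimmer probe set of P4HA2 went the other way, with means of 5.97 on the PD0332991 arrays and 6.37 on the DMSO arrays and a difference of -0.40 ± 0.305, and neither passed (limma adjusted p = 1 for both).

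**Figure D2:**
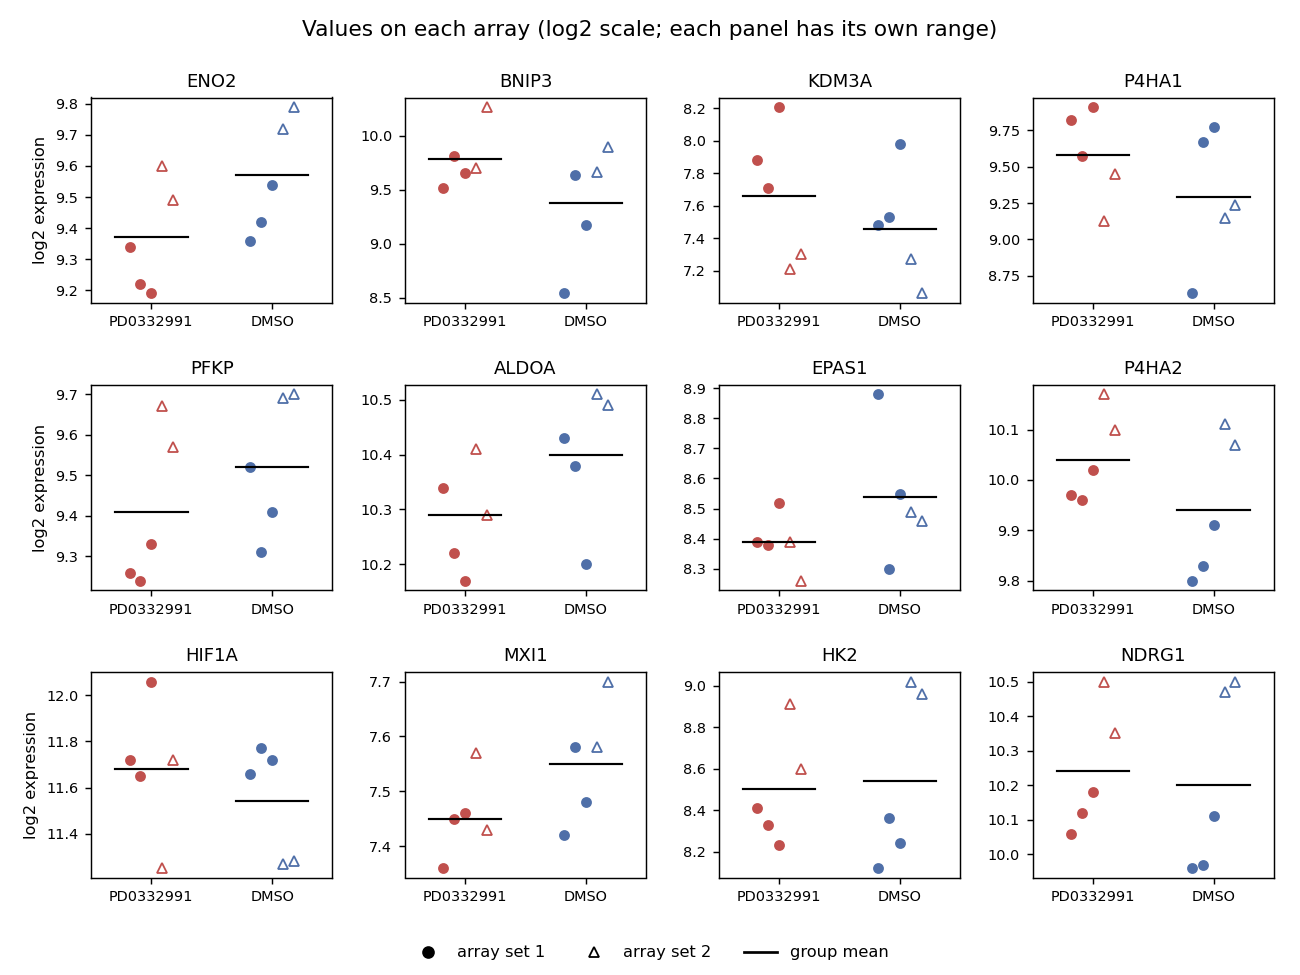
Log2 expression (vertical axes) on each array for the 10 genes with the smallest p-values of the treatment, in order of p, and for HK2 and NDRG1; circles are array set 1, triangles set 2, and lines the group means (n = 5). In ENO2 the treated arrays of each set lie under the DMSO arrays of the same set, and in HK2 and NDRG1 the triangles lie above the circles in both groups.

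ENO2 had the smallest p of the 27. It encodes the gamma isoform of enolase, which converts phosphoglycerate to phosphoenolpyruvate and is best known from neurons. Its values were 9.34, 9.22, 9.19, 9.60 and 9.49 on the PD0332991 arrays and 9.36, 9.42, 9.54, 9.72 and 9.79 on the DMSO arrays. The groups overlapped across sets, but within each set every treated array was below every DMSO array. Such an order in the lower direction was found for 1 of the 27 genes and for 1.45% of all probe sets, and in the higher direction for 0 of 27 and for 0.814%. The log2 difference was -0.20 ± 0.08 (SE, n = 5 per group), a ratio of 0.871 with a 95% confidence interval of 0.765 to 0.992. In the limma fit its unadjusted p was 0.0396 and its adjusted p was 1. It was -0.19 in set 1 and -0.21 in set 2, and between -0.22 and -0.17 when any single array was left out. ENO1, the enolase found in most cells, had a difference of 0.01 ± 0.08.

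The other enzymes of glycolysis are given in the order of the pathway. SLC2A1, the main glucose transporter of dividing cells, had 10.78 to 11.30 (median 11.07) on the PD0332991 arrays and 10.72 to 11.36 (median 11.02) on the DMSO arrays, a log2 difference near zero with a 95% confidence interval of -0.22 to 0.21. The hexokinases, which trap glucose in the cell, had differences of -0.02 (HK1, 95% confidence interval -0.40 to 0.355) and -0.04 (HK2, -0.29 to 0.20). PFKP, the platelet form of phosphofructokinase, had 9.26, 9.24, 9.33, 9.67 and 9.57 on the PD0332991 arrays and 9.52, 9.31, 9.41, 9.69 and 9.70 on the DMSO arrays. Its difference was -0.11 ± 0.08, with overlap in set 1 and none in set 2. ALDOA, the ubiquitous aldolase, had 10.34, 10.22, 10.17, 10.41 and 10.29 on the PD0332991 arrays and 10.43, 10.38, 10.20, 10.51 and 10.49 on the DMSO arrays. The groups overlapped, the DMSO arrays of set 2 were the highest, and the difference was -0.12 ± 0.09, with -0.07 for its isoform ALDOC. PGK1, phosphoglycerate kinase, varied most among arrays of one treatment and set. It ran from 12.22 to 13.21 on the PD0332991 arrays and from 12.10 to 13.51 on the DMSO arrays, with a difference of 0.14 ± 0.26 that was -0.03 without DMSO replicate 1, 0.35 without DMSO replicate 2 and 0.31 without PD0332991 replicate 3. PKM, the last enzyme of the pathway, and LDHA, which turns pyruvate into lactate, had differences of 0.04 (-0.14 to 0.22) and -0.01 (-0.22 to 0.19). Among the 10 enzymes, 3 differences were positive and 7 negative.

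The regulators of flux gave no larger values. PFKFB3 and PFKFB4, which set the level of the sugar phosphate that activates phosphofructokinase, had log2 differences of 0.04 (-0.15 to 0.23) and -0.01 (-0.22 to 0.20). PDK1, the kinase that keeps pyruvate out of the mitochondrial pyruvate dehydrogenase reaction, had -0.05 (-0.37 to 0.27).

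Of the gene pairs, ENO2 and ENO1 stood at -0.20 and 0.01, BNIP3 and BNIP3L at 0.41 and 0.07, and P4HA1 and P4HA2 at 0.28 and 0.10. HK1 and HK2 stood at -0.02 and -0.04, ALDOA and ALDOC at -0.12 and -0.07, and PFKFB3 and PFKFB4 at 0.04 and -0.01. The differences between partners were not tested.

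Other genes of the same pathways were counted for context. Of 65 listed, 55 were measured, of which 31 had a positive and 24 a negative log2 difference, with a median of 0.02. Over all genes 44.7% of the differences were positive, with a median of -0.02. In the limma fit 1 of the 55 passed as higher, against 0.00910% of all probe sets, and 0 as lower, against 0.0409%. The 1 was DDIT4, which is induced by hypoxia and encodes an inhibitor of the kinase mTORC1. It had 7.60, 7.80, 7.89, 7.49 and 7.38 on the PD0332991 arrays and 6.33, 6.53, 6.52, 6.26 and 6.12 on the DMSO arrays, with no overlap, and rose 2.43-fold (95% confidence interval 2.10 to 2.81, limma adjusted p = 0.00177). Among the other 23 measured hypoxia-induced genes outside the 27, 13 differences were positive and 10 negative, with a median of 0.02. None of the 23 passed in the limma fit, and 1 (4.35%), PPP1R3C, had an unadjusted p under 0.05, against 4.17% of all probe sets. The next smallest p-values among the 55 were those of TXNIP, PPP1R3C and ARNT2. TXNIP, which restrains glucose uptake, had 7.91, 7.83, 7.96, 7.56 and 7.39 on the PD0332991 arrays and 7.26, 7.45, 7.66, 7.26 and 7.36 on the DMSO arrays. Within each set the treated arrays were above the DMSO arrays, by 0.44 in set 1 and 0.17 in set 2, and the joint difference was 0.33 ± 0.11 (limma adjusted p = 0.901). PPP1R3C, a glycogen-targeting phosphatase subunit, had 0.56 ± 0.245, with 6.34 on DMSO replicate 1 against 7.60 to 7.82 on the other DMSO arrays. Without that array, a fit added after seeing the data, PPP1R3C had 0.29 and did not pass (limma adjusted p = 0.627). In the same fit DDIT4 had 1.24 and passed (limma adjusted p = 0.0021). At an unadjusted limma p under 0.05 there were 5 of the 55: CITED2, PPP1R3C, DDIT4, PGAM2 and TXNIP. CITED2, of the HIF system, had 0.28 (limma adjusted p = 0.581), against 0.07 with all arrays. Its value was 10.53 on DMSO replicate 1 and 9.23 to 9.51 on the other DMSO arrays. In the fit without DMSO replicate 1, positive differences were 37 of the 55 and 12 of the 27. Shares over all genes were not counted for that fit, so no count from it can be read against them. ARNT2, a relative of the HIF partner ARNT, had -0.18 ± 0.09. Of the 8 measured genes of the HIF system 4 differences were positive, and of the 23 further glycolysis and pyruvate genes 13.

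The array sets were then fitted alone. In neither did any of the 27 pass, as 0 of the 21980 probe sets did (limma adjusted p; at an unadjusted p under 0.05, 2.85% of all in set 1 and 5.78% in set 2, and 0 of the 27 in either). The treatment difference had the same sign in both sets in 15 of the 27 genes, against 54.6% of all genes. The median of the 27 was 0.02 in set 1 and -0.01 in set 2. The interaction of treatment and set passed for 0 probe sets (2.56% at an unadjusted p under 0.05), and its smallest unadjusted p among the 27 was 0.163 (limma), for BNIP3L.

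**Figure D3:**
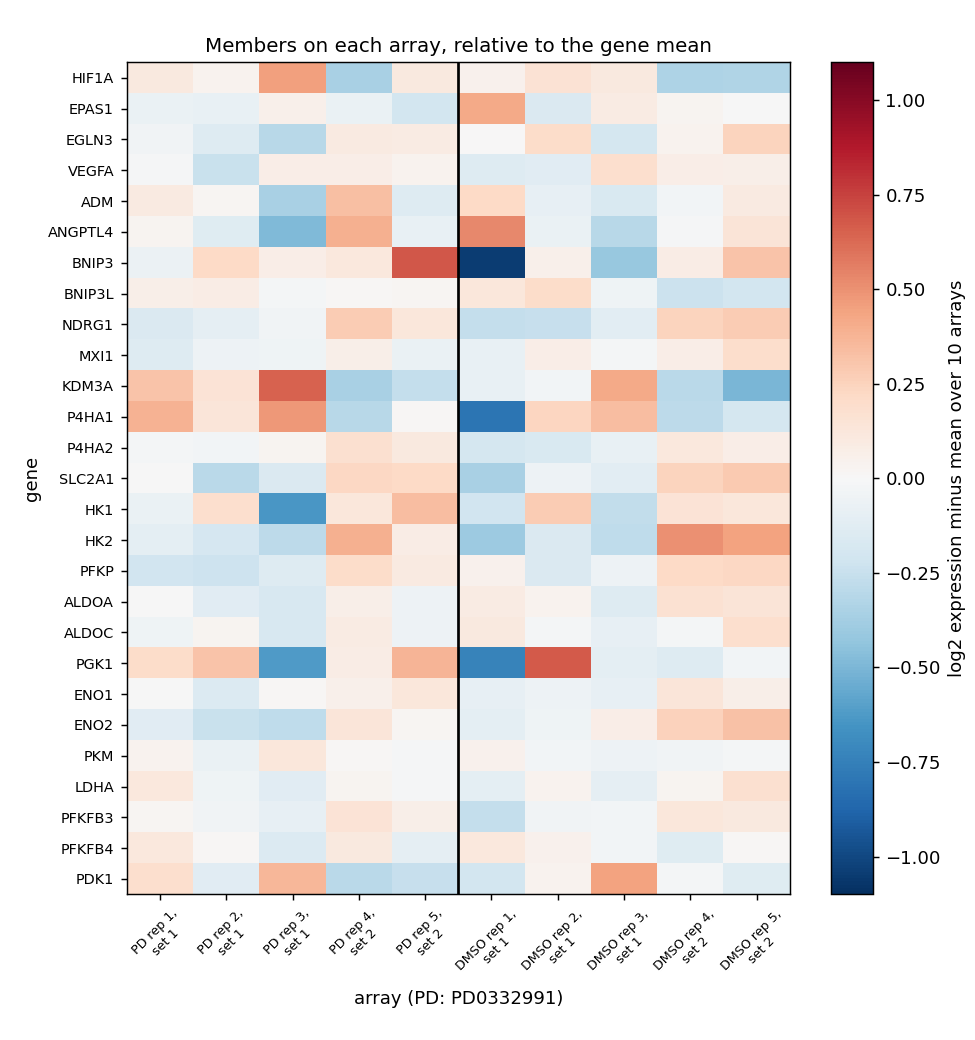
Log2 expression of each of the 27 genes (rows) on each array (columns, PD0332991 left of DMSO) minus the gene's mean over the 10 arrays, with red above and blue below that mean. DMSO replicate 1 holds the lowest value of 8 genes, BNIP3, P4HA1 and PGK1 among them, and no column block of one treatment is red or blue throughout.

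Between arrays of the same treatment and set, the 27 genes varied little. Their standard deviation had a median of 0.12, against 0.22 over all genes, and ran from 0.04 for P4HA2 to 0.51 for PGK1. P4HA1 (0.39), BNIP3 (0.37), ANGPTL4 (0.32) and HK1 (0.31) followed PGK1. The 27 were also bright: 24 lay above the median of every array, against 6718 of all 14233 genes. The spread was not compared at matched brightness. The extremes lay on few arrays: PD0332991 replicate 3 was the lowest of the 10 for 9 genes and the highest for 4, DMSO replicate 1 the lowest for 8 and the highest for 3, and DMSO replicate 5 the highest for 8. The mean over the 27 genes ran from 9.24 to 9.37 on the PD0332991 arrays and from 9.18 to 9.38 on the DMSO arrays.

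Between the array sets 3 of the 27 genes differed (11.1%), against 3.53% of all probe sets. The 27 genes also varied less between arrays than all genes did, and the shares compared here were not matched for this. The labels do not say what the sets share, so handling of the cells and of the arrays cannot be told apart. In the same limma fit (set 2 minus set 1, adjusted p under 0.05), 2 of the 27 were higher (HK2 and NDRG1) and 1 was lower (KDM3A). The shares of all probe sets were 2.57% higher and 0.965% lower. HK2, the inducible hexokinase, had 8.91 and 8.60 on the PD0332991 arrays and 9.02 and 8.96 on the DMSO arrays of set 2, against 8.41, 8.33 and 8.23 on the PD0332991 arrays and 8.12, 8.36 and 8.24 on the DMSO arrays of set 1. The sets did not overlap, and HK2 was 1.51-fold higher in set 2, a log2 difference of 0.59 (95% confidence interval 0.345 to 0.84, limma adjusted p = 0.0231). NDRG1 ran from 10.35 to 10.50 in set 2 and from 9.96 to 10.18 in set 1, a difference of 0.39 (0.19 to 0.585, limma adjusted p = 0.0445). KDM3A ran from 7.06 to 7.30 in set 2 and from 7.48 to 8.21 in set 1, a difference of -0.59 (-0.90 to -0.28, limma adjusted p = 0.0478).

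**Figure D4:**
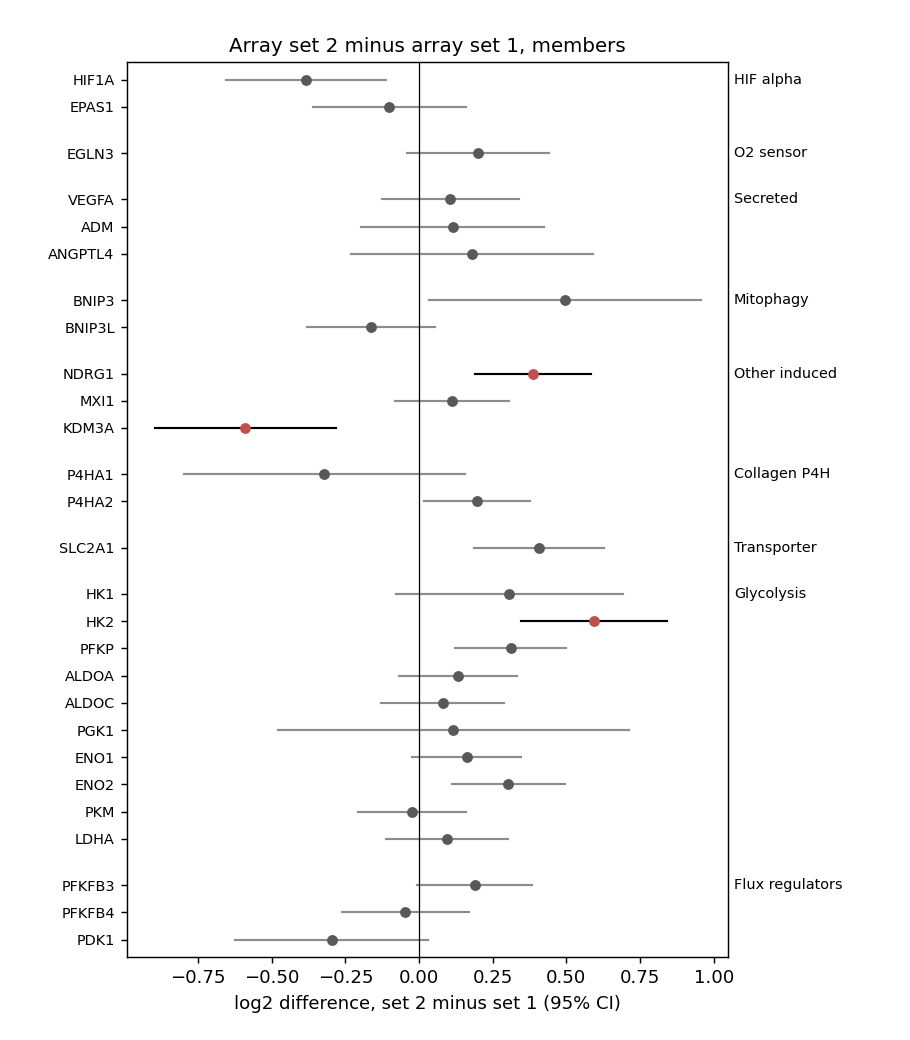
Log2 difference, array set 2 minus array set 1 (horizontal axis), for the 27 genes by role; points are limma estimates from the fit with treatment, bars 95% confidence intervals (4 arrays in set 2, 6 in set 1), and red marks an adjusted p under 0.05. HK2 and NDRG1 lie right of zero and KDM3A left of it, and the glycolytic enzymes lie right of zero except PKM.

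At an unadjusted p under 0.05 the set difference held for 9 of the 27 genes (33.3%), against 18.3% of all probe sets. Among those that did not pass, SLC2A1 had 0.41 (limma adjusted p = 0.0538), PFKP 0.31 (0.0784), ENO2 0.30 (0.0876) and HIF1A -0.38 (0.120). Of the 27 differences 19 were positive, with a median of 0.12, against 61.6% positive and a median of 0.05 over all genes. Of the 10 glycolytic enzymes 9 were positive. The calls changed when 1 array was left out, and the cause was not tested. None of the 3 genes passed without any 1 of DMSO replicates 3, 4 and 5 or PD0332991 replicates 3 and 4. HK2 alone passed without any 1 of DMSO replicate 2 and PD0332991 replicates 1, 2 and 5. Without DMSO replicate 1, 7 genes passed. The sizes were steadier, at 0.55 to 0.69 for HK2, 0.36 to 0.44 for NDRG1 and -0.65 to -0.52 for KDM3A. Among 19 markers of cell types the set difference passed for HBB, a blood marker, at 0.66 (limma adjusted p = 0.0278), with 5.17 to 5.68 in set 2 and 4.45 to 4.97 in set 1, and for no other. Its part in these differences was not tested.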

How the data were processed

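Total RNA of 10 U2OS samples was made into biotin-labelled cDNA and hybridised, per the labels' protocols. The authors deposited log2 expression values summarised to genes. RMA, Partek and hg18 are named in the submitters' processing notes, and versions are not given in the sources used here. RMA summarises on the log2 scale and compresses differences of dim genes. The number of arrays limits the precision.

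Probe sets (21980) were named through the platform annotation: 14434 have 1 symbol, 2406 several and 5140 none. A gene was taken from its single-symbol probe set with the highest mean. limma 3.58.1 in R 4.3.3 was fitted to all probe sets (lmFit, eBayes, 2-sided) with treatment and array set, and p-values were adjusted by Benjamini-Hochberg over all of them, with a threshold of 0.05. Intervals are 95% confidence intervals of this fit.

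The genes, the further pathway genes, the markers and the tests were chosen with earlier results of these data known. All measured genes of the list are named; every array is given for the 10 with the smallest p. Genes of the other pathway list are named where they passed or were among the 4 with the smallest p. Those with an unadjusted p under 0.05 without DMSO replicate 1 are named too. Markers were named for the check of the cell type. The alternatives were the model terms, normalization, probe sets tested, variance moderation, array weights and leaving out arrays.

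On simulated data with 66 probe sets changed at each size among 21980, the PD0332991 against DMSO fit recovered 18.2% of differences of 0.5, 63.6% of 1 and 97% of 2 on the log2 scale, with 9 false calls among 127. The adjustment is looser where more probe sets pass, and only 11 passed in the real data. The recovered shares can therefore be higher than those of the real fit. Plots used Matplotlib 3.10.9 (Python 3.11.15).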

Additional observations from a re-analysis of the deposited data

How the results depend on the processing

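No gene of the 27 passed for the treatment under any of the 10 other fits or the 10 that left out 1 array (0 higher and 0 lower in each; smallest limma adjusted p = 0.468, for ENO2 with array weights). Over all probe sets 11 passed, against 2 with the replicate block, 18 with single-symbol probe sets only, 63 with array weights and 2 to 23 with 1 array left out (23 without DMSO replicate 1). The median of the 27 stayed between -0.04 and 0.01. In 13 genes the sign held throughout. It turned for ENO1 (-0.0036) and PFKFB4 (0.0103) after quantile normalization; ADM (0.0001), ENO1 (-0.0668), PKM (-0.026) and PFKFB4 (0.0121) after cyclic loess; SLC2A1 (0.0099), LDHA (0.0005) and PFKFB4 (0.0052) after median centring. With array weights it turned for ADM (0.1257), ANGPTL4 (0.1002) and PFKFB4 (0.0592), and without both arrays numbered 1 ADM (0.0096), PGK1 (-0.061), ENO1 (-0.0043) and PFKFB3 (-0.0184). P4HA2 averaged over its probe sets gave -0.149. The cause was not tested.

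With 1 array left out the sign turned in 12 genes: VEGFA ran from -0.0636 to 0.0327, ADM from -0.0998 to 0.0675, ANGPTL4 from -0.2146 to 0.0362, SLC2A1 from -0.0564 to 0.0305, HK1 from -0.1111 to 0.1158 and HK2 from -0.0938 to 0.0345. PGK1 ran from -0.0309 to 0.3547, ENO1 from -0.004 to 0.0422, LDHA from -0.0576 to 0.0232, PFKFB3 from -0.0047 to 0.0589, PFKFB4 from -0.0515 to 0.0368 and PDK1 from -0.1418 to 0.0367.

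For array set 2 against set 1, 2 genes were higher and 1 lower. Median centring gave 1 and 0; leaving out the dimmest 33.3% of probe sets or using trend and robust moderation gave 5 higher, and array weights 5 higher and 3 lower. With 1 array left out the counts ran from 0 to 5 higher and from 0 to 2 lower. The labels do not say that replicate numbers pair the samples, and the correlations of same-numbered deviations (0.035, 0.073, 0.541, 0.23 and 0.199) were not all over 0.1, so no pairing was assumed. By the same measure 4 of 10 arrays correlated best with their own number. The deviations were taken from the treatment means, so they kept the array-set difference, which same-numbered arrays share. Neither measure can therefore tell pairing from the sets. With the replicate block 0 of the 27 passed, and the unadjusted limma p was 0.0265 for BNIP3 and 0.0667 for ENO2 (adjusted p 0.878 and 0.908). With no detection calls used, the signal under which a gene is not measured is unknown.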
